A study of Rattus norvegicus with 82 samples.

Results

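The 8 genes described here encode adrenergic receptors and proteins that pass on or end their signal, with cyclic AMP (cAMP) as the messenger of the β receptors. They are the β1-adrenergic receptor gene Adrb1, the β3-adrenergic receptor gene Adrb3, the α1-adrenergic receptor genes Adra1a and Adra1b, Gnas, which encodes the stimulatory G protein α subunit, the adenylyl cyclase genes Adcy5 and Adcy6, and the receptor kinase gene Grk5. They were chosen by gene symbol, and the count table of 17337 genes held 8 of 8. Enough counts for a test were present for 7 of them, among 11954 genes tested, and Adrb3 was too low.

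Noradrenaline released from sympathetic nerves binds β-adrenergic receptors, which activate the stimulatory G protein and adenylyl cyclase, and the resulting cAMP activates protein kinase A and speeds and strengthens the beat. The α1 receptors couple to another G protein, to phospholipase C and to protein kinase C, and are known for growth signals in myocytes. Receptor kinases phosphorylate occupied receptors and uncouple them from their G protein, and long catecholamine exposure in heart failure is known to desensitize this pathway.

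Total RNA was sequenced from cardiomyocytes of each ventricle, right (RV) and left (LV), of 41 F1 rats, bred from Wistar Kyoto females and Lewis males, which gave 82 libraries, 1 per ventricle and animal. Pulmonary artery banding (PAB) loaded the RV, aortic banding (AOB) loaded the LV, and sham-operated rats served as controls. The letter H marks the compensated stage, sampled 7 weeks after surgery at a labelled age of 11 weeks, in 7 Sham-H animals (3 male), 6 PAB-H animals (4 male) and 6 AOB-H animals (2 male). The letter F marks heart failure, with 9 Sham-F animals (4 male) and 7 AOB-F animals (4 male) sampled 26 weeks after surgery at a labelled age of 31 weeks. The 6 PAB-F animals (4 male) were sampled 22 weeks after surgery at a labelled age of 28 weeks. Banding and this gap in age to Sham-F therefore cannot be told apart. The study states surgery at 7 weeks of age and gives later sampling ages, which the labelled ages do not match. The cells came from collagenase digestion and centrifugation without a sort, so each library is the myocyte fraction of 1 ventricle.

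The libraries held 6675287 to 19665439 counts (median 13074485.5). Ventricular cardiomyocyte markers (9 of 9 in the table) summed to 53800 to 142000 CPM (counts scaled to the library total) in each library, against 151 to 2510 CPM for 8 fibroblast markers, 641 to 3850 CPM for 7 endothelial markers and 16.2 to 214 CPM for 8 macrophage markers. The adipocyte markers Adipoq and Plin1 had no count in 45 and 49 of the 82 libraries, while the list of 5 adipocyte markers, which also holds Fabp4, a gene that endothelial cells express too, summed to 21.2 to 276 CPM. The LV libraries of the F stage stood apart from those of the H stage, since 57.4% of the genes tested differed between LV Sham-F and LV Sham-H, against 0.0502% between RV Sham-F and RV Sham-H. LV AOB-F replicates 6 and 7 had the lowest shares of the myosin gene Myh6 (0.464% and 0.641% of their counts, against a median of 4.2% over the 82 libraries). The RV libraries of the same animals held 1.63% and 1.72%. Whether a low share reflects the state of the heart or of the library was not tested. Both libraries of the AOB-H animal of replicate 6 lay at the edge of their groups for several of the genes described here. In bulk libraries like these, fewer cells of a type and less RNA per cell cannot be told apart.

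Per length, in the authors' FPKM (fragments scaled to gene length and library size), Adcy5 was the most abundant of the 8 genes. Its level averaged 171 ± 26.0 FPKM (SD, n = 82 libraries), above that of 96.6% of the genes tested. Gnas followed at 117 ± 20.2 FPKM. Adra1a at 65.5 ± 17.3 FPKM and Adcy6 at 65.1 ± 13.9 FPKM did not differ beyond their spread, and Adra1b at 51.6 ± 12.3 FPKM and Adrb1 at 36.8 ± 8.82 FPKM overlapped with their neighbours in this order. Grk5 was the lowest of the 7 genes tested, at 15.9 ± 6.23 FPKM. Adra1a and Adra1b thus each lay above Adrb1 in mean level. Adcy5 lay 2.45-fold to 2.98-fold above Adcy6 in the means of the within-library ratio over the 12 groups.

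Adrb3, the β receptor best known from fat cells, had no count in 70 of the 82 libraries and 19 counts in total, with at most 5 in a library. Its mean level was 0.00785 FPKM. The counts allow no statement on how Adrb3 differed between groups.

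**Figure D1:**
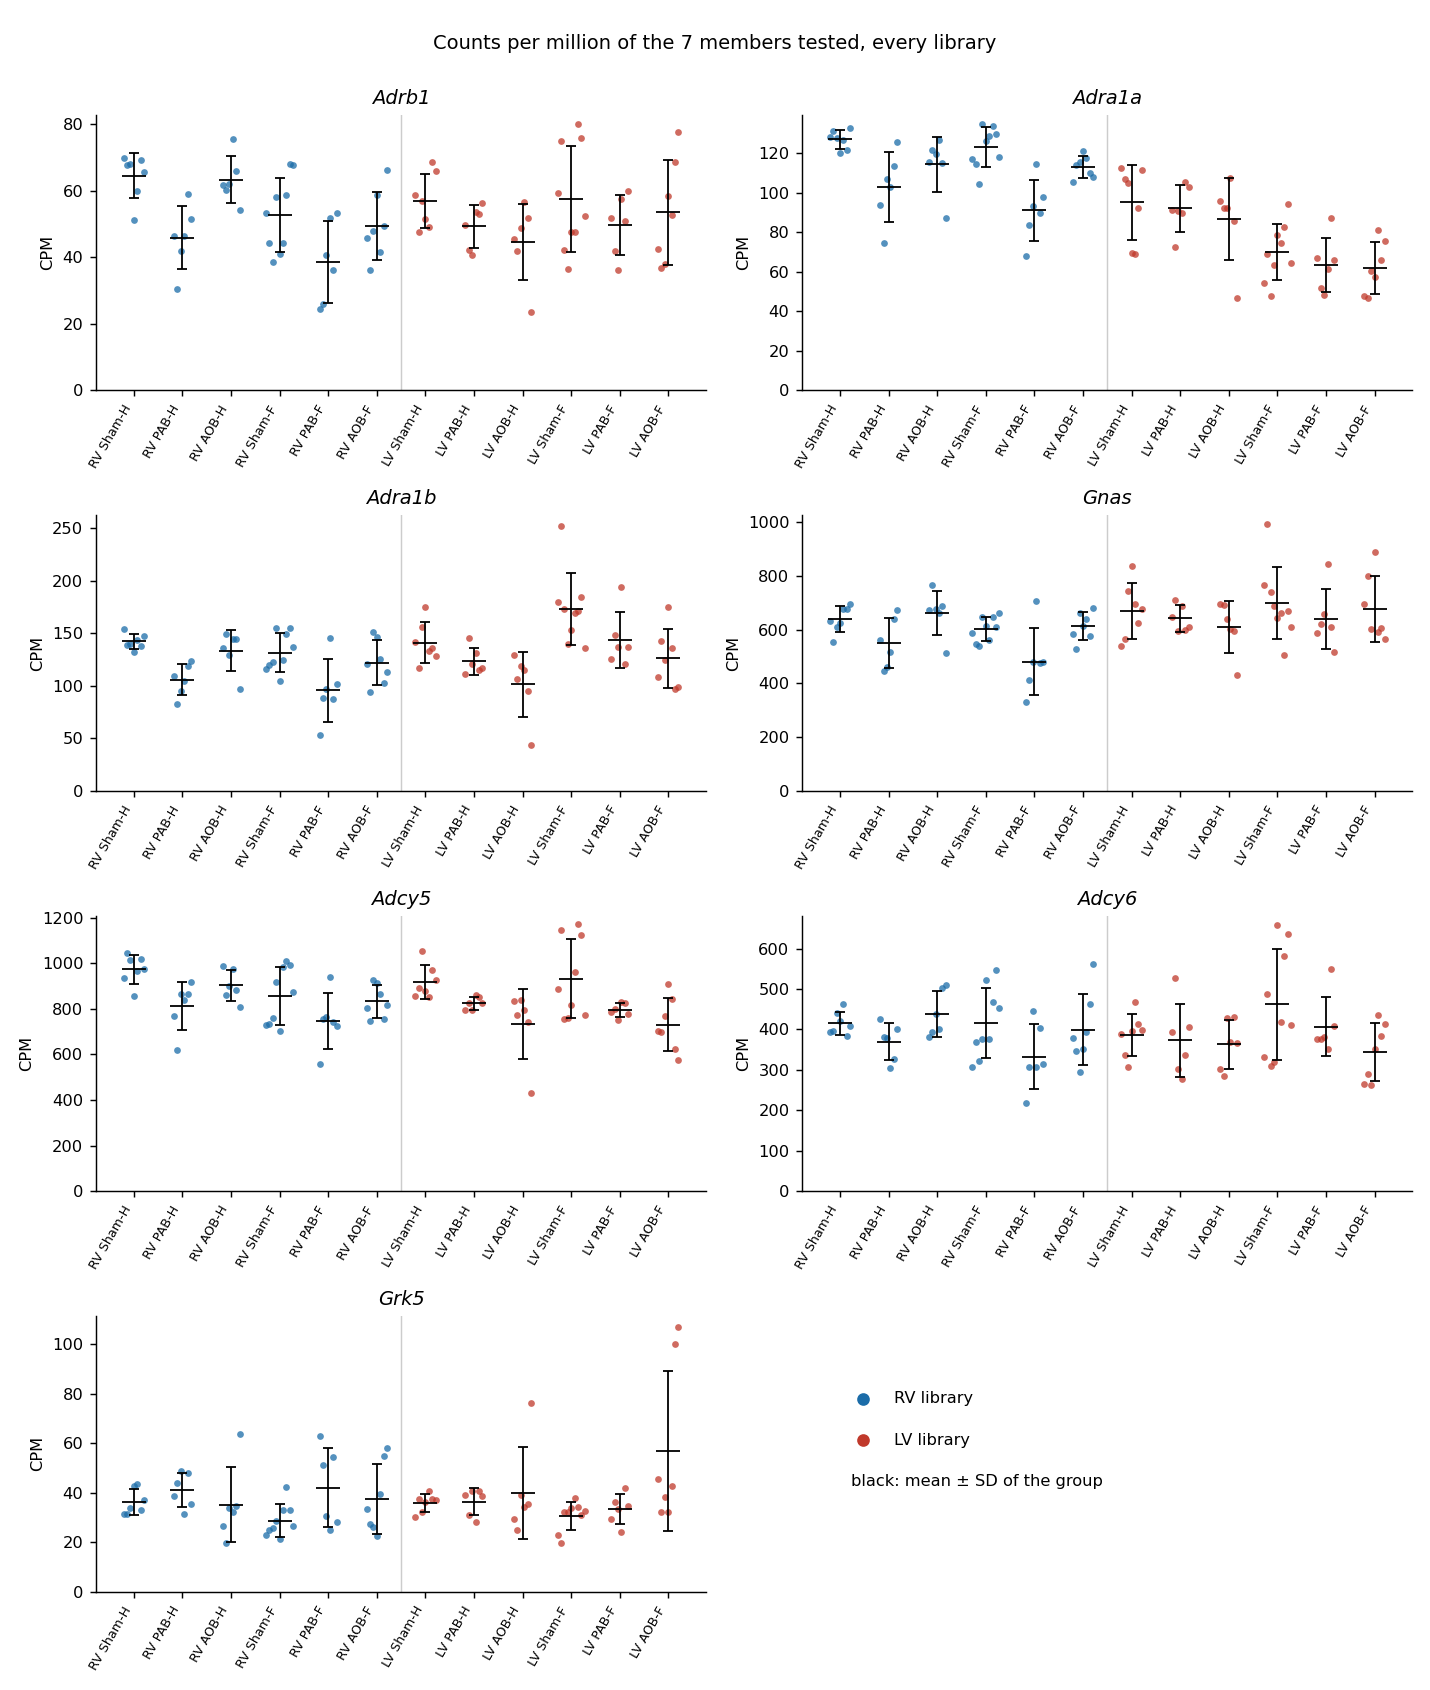
Level in CPM (y axis, linear and starting at 0) of the 7 genes tested in each of the 82 libraries, by group (x axis); blue points are RV libraries, red points LV libraries, and the black bars give the mean ± SD of each group. Adra1a sat lower in the LV than in the RV, with the lowest LV groups at the F stage, and Grk5 had 2 LV AOB-F libraries at 99.98 and 107 CPM, above the other 80.

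Each banded group was first compared with the sham group of the same stage and ventricle, to ask which members of the pathway changed with pressure load. In the failing RV the transcripts of Adra1a and Adra1b were called lower. In the failing LV those of Adra1b, Adcy5 and Adcy6 were called lower and that of Grk5 higher. None of the RV calls was left without RV PAB-F replicate 1, and none of the LV calls without LV AOB-F replicates 6 and 7. RV PAB-F had 2 of 7 genes called lower at an adjusted p under 0.05 by edgeR's quasi-likelihood test, Adra1a and Adra1b, where 3.42% of the genes tested were called lower and 11.1% in either direction. LV AOB-F had 3 of 7 called lower (Adra1b, Adcy5 and Adcy6) where 4.35% of the genes tested were, and 1 called higher (Grk5) where 8.54% were, or 12.9% in either direction. In the compensated loaded ventricles 0 of 7 were called, in RV PAB-H against 4.5% of the genes tested and in LV AOB-H against 0.0167%. At an unadjusted p under 0.05 edgeR gave 4 of 7 in RV PAB-H and 2 of 7 in LV AOB-H, where 2462 and 2387 of the 11954 genes tested passed. DESeq2 called 0 of 7 in both. A fit to RV PAB-H and RV Sham-H alone called 4 of 7 (Adrb1, Adra1a, Adra1b and Adcy5, each lower) where 14.9% of the genes tested were called, and a fit to LV AOB-F and LV Sham-F alone called 0 of 7 where 0.133% were. In each of these 4 comparisons 6 of the 7 log2 fold changes were negative and that of Grk5 was positive, with medians over the 7 genes of -0.26 (RV PAB-H), -0.32 (RV PAB-F), -0.14 (LV AOB-H) and -0.17 (LV AOB-F), where the medians over the genes tested were 0.00, 0.02, 0.02 and 0.04. The ventricles not under load, compared with sham in the same way, had 6 negative and 1 positive log2 fold changes in LV PAB-H (median -0.06) and LV PAB-F (-0.18), and 5 negative and 2 positive in RV AOB-H (-0.04) and RV AOB-F (-0.06). By the study's own criteria (absolute log2 fold change over 1, p of at most 0.01 and a mean count over 50) 0 of 7 passed in any of the 8 comparisons, since no gene of the 7 changed 2-fold.

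**Figure D2:**
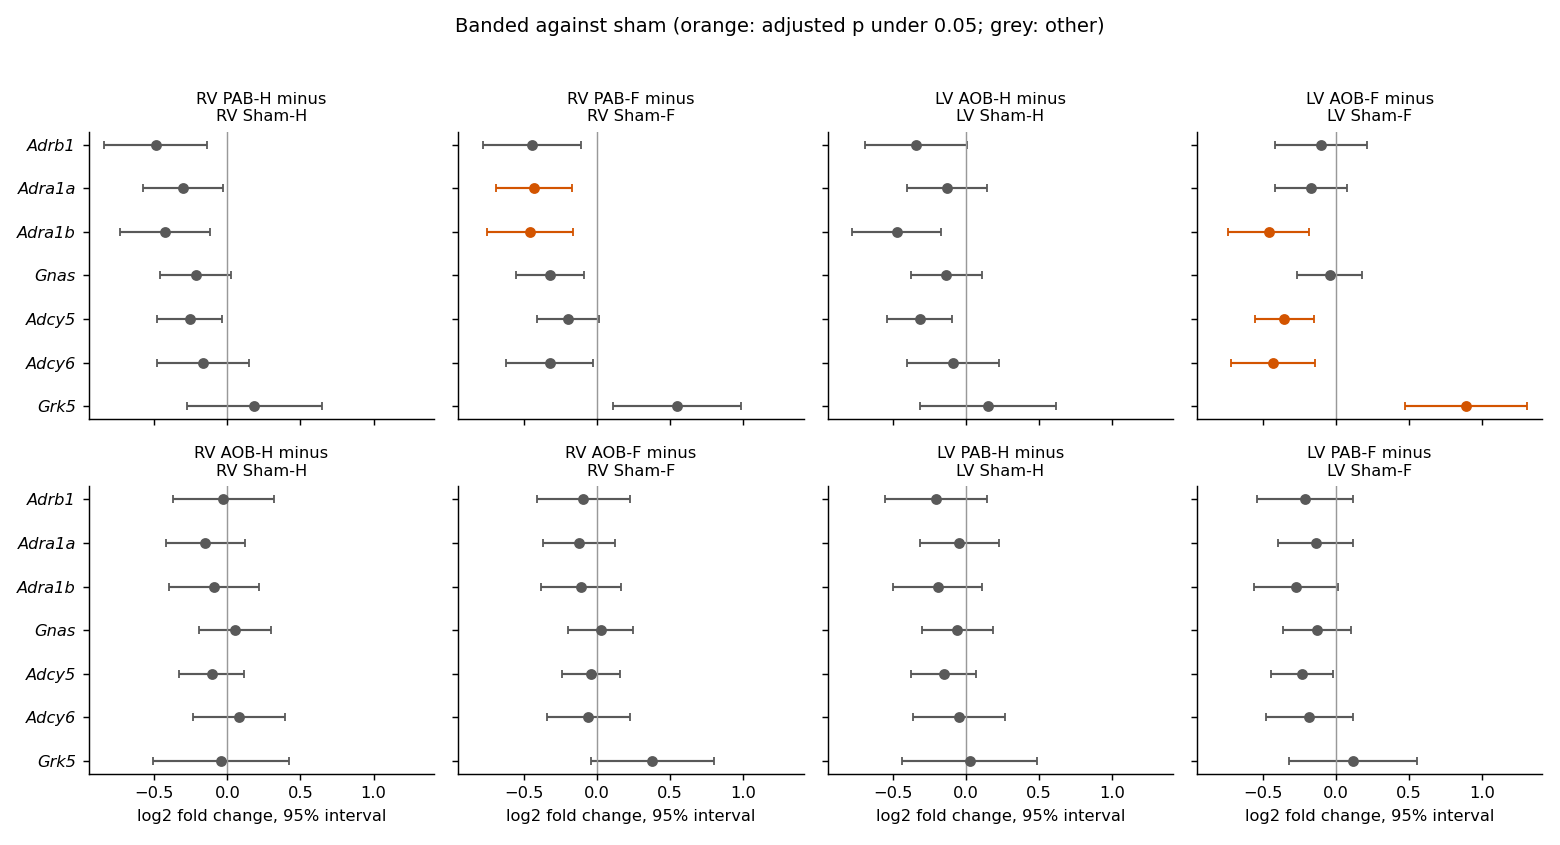
Log2 fold change of the 7 genes tested (x axis, with its 95% interval) in the 8 comparisons of a banded group with its sham group; the upper row shows the loaded ventricles and the lower row the remote ventricles, and orange points have an adjusted p under 0.05. The 6 orange points are Adra1a and Adra1b in RV PAB-F and Adra1b, Adcy5, Adcy6 and Grk5 in LV AOB-F.

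Adrb1 encodes the main β receptor of the myocyte. It ran from 24.4 CPM over a median of 38.3 to 53.2 CPM in RV PAB-F (n = 6), and from 38.5 over 53.4 to 68 CPM in RV Sham-F (n = 9). The groups overlapped, with 3 of 6 banded libraries below the lowest sham library. The log2 fold change was -0.45 ± 0.17 (SE), with an adjusted p of 0.0703. Without RV Sham-F replicate 3, RV PAB-F replicate 4 or RV PAB-F replicate 6 the adjusted p was 0.0393, 0.0302 and 0.0263. In RV PAB-H the log2 fold change was -0.49 ± 0.18, with 4 of 6 libraries below the lowest of 7 sham libraries and an adjusted p of 0.0827, which was 0.0448 without RV PAB-H replicate 5. In LV AOB-F, Adrb1 differed from sham by -0.10 ± 0.16 on the log2 scale, with a 95% interval from -0.42 to 0.21.

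Adra1a encodes the α1A receptor. In RV PAB-F it measured 68 to 115 CPM with a median of 91.4, and in RV Sham-F 104 to 135 CPM with a median of 126. Of the 6 banded libraries, 5 lay below the lowest sham library. Adra1a fell by 0.43 ± 0.13 on the log2 scale, to 0.741-fold (adjusted p = 0.0209). This call was lost without RV PAB-F replicate 1 (adjusted p = 0.143) or replicate 2 (0.057), the RV PAB-F libraries with the lowest shares of Myh6, 1.19% and 1.66%. Without replicate 1, RV PAB-F had 0 of 7 genes called, and 2.98% of the genes tested. In LV AOB-F the α1A receptor measured 46.7 to 81 CPM against 47.8 to 94.0 CPM in LV Sham-F, a log2 fold change of -0.17 ± 0.12 (adjusted p = 0.368).

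Adra1b, which encodes the α1B receptor, was called lower in both failing loaded ventricles. RV PAB-F held 53.4 to 146 CPM with a median of 92.4, and RV Sham-F held 105 to 155 CPM with a median of 124. A single banded library lay among the sham libraries and the other 5 lay below them. The fall was 0.46 ± 0.15 on the log2 scale, to 0.728-fold (adjusted p = 0.0318). In the LV, Adra1b measured 97.1 to 175 CPM with a median of 124 in AOB-F and 136 to 252 CPM with a median of 172 in Sham-F, and 4 of the 7 banded libraries lay below the lowest sham library. The fall there was 0.46 ± 0.14 (adjusted p = 0.0206), again to 0.728-fold. The RV call was lost without RV Sham-F replicate 8 or RV PAB-F replicate 1, 2 or 5 (adjusted p between 0.0568 and 0.221), and the LV call without LV Sham-F replicate 2 or LV AOB-F replicate 1, 6 or 7 (between 0.0552 and 0.0826). In RV PAB-H, 6 of 6 libraries lay below the 7 sham libraries, at 82.9 to 123 CPM against 132 to 154 CPM, with a log2 fold change of -0.43 ± 0.15 and an adjusted p of 0.0864. LV AOB-H gave a log2 fold change of -0.48 ± 0.15 (adjusted p = 0.109).

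Gnas encodes the G protein subunit that links β receptors to adenylyl cyclase. Its locus also gives other transcripts from other starts, and reads that overlapped more than 1 gene were not counted, and whether the counting used the strand is not stated in the sources used here, so these counts are a sum over what the annotation assigns to Gnas. RV PAB-F held 329 to 707 CPM with a median of 477, against 540 to 661 CPM with a median of 610 in RV Sham-F. Of 6 banded libraries, 5 lay below the lowest sham library and 1, replicate 4, lay above the highest. The log2 fold change was -0.32 ± 0.12 (adjusted p = 0.0597), and without that library it was -0.47 (adjusted p = 0.00503). Leaving out RV Sham-F replicate 2 or 3 gave an adjusted p of 0.0433 and 0.0408. In LV AOB-F the groups overlapped throughout, with a log2 fold change of -0.04 ± 0.11 and a 95% interval from -0.26 to 0.18.

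Adcy5 and Adcy6 encode the calcium-inhibited adenylyl cyclases that make most of the cAMP of the heart. In LV AOB-F, Adcy5 measured 577 to 907 CPM with a median of 701, and in LV Sham-F 756 to 1172 CPM with a median of 888. A majority of the banded libraries, 4 of 7, lay below the lowest sham library. Adcy5 fell by 0.35 ± 0.10 on the log2 scale, to 0.784-fold (adjusted p = 0.0147). Adcy6 measured 262 to 436 CPM with a median of 351 in LV AOB-F and 309 to 660 CPM with a median of 418 in LV Sham-F, with 3 of 7 banded libraries below the sham range. It fell by 0.43 ± 0.14, to 0.744-fold (adjusted p = 0.037). The Adcy5 call was lost without LV Sham-F replicate 7 (0.053) or LV AOB-F replicate 7 (0.0767), and the Adcy6 call without any 1 of LV Sham-F replicates 2, 5, 7 and 8 and LV AOB-F replicates 1, 2 and 3 (0.0656 to 0.11). In RV PAB-F the log2 fold changes were -0.20 ± 0.11 for Adcy5 (adjusted p = 0.215) and -0.32 ± 0.15 for Adcy6 (0.147). In LV AOB-H, the 6 libraries of Adcy5 lay below the 7 sham libraries, at 431 to 839 CPM against 852 to 1053 CPM, with a log2 fold change of -0.32 ± 0.11 and an adjusted p of 0.126.

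Grk5 encodes a receptor kinase that phosphorylates β receptors and, in the nucleus of myocytes, a histone deacetylase. The 7 LV AOB-F libraries measured 32.1, 32.2, 38.3, 42.5, 45.6, 99.98 and 107 CPM, and the 9 LV Sham-F libraries 19.8 to 37.8 CPM with a median of 32.2. In 5 of the 7 banded libraries Grk5 lay above the highest sham library, and replicates 6 and 7, both from females, lay far above the rest. Grk5 rose by 0.89 ± 0.21 on the log2 scale, 1.85-fold (adjusted p = 0.00312). Without replicates 6 and 7, the libraries with the lowest share of Myh6, its log2 fold change was 0.32 (adjusted p = 0.373), and the log2 fold changes of Adra1b, Adcy5 and Adcy6 in the same comparison were -0.33, -0.24 and -0.52 (adjusted p = 0.208, 0.2 and 0.0548). Then 0 of the 4 calls was left, and 3.04% of the genes tested were called in place of 12.9%. In RV PAB-F, Grk5 measured 24.8 to 62.9 CPM with a median of 40.9 against 21.4 to 42.4 CPM with a median of 26.4 in RV Sham-F. Its log2 fold change was 0.55 ± 0.22 (adjusted p = 0.0849), which was 0.66 without RV PAB-F replicate 4 (0.0384) and 0.67 with sex in the fit (0.0136). In the compensated loaded ventricles the values were 0.19 ± 0.23 (RV PAB-H) and 0.15 ± 0.23 (LV AOB-H).

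Markers of other cells moved in the same comparisons. In RV PAB-H 7 of 7 fibroblast markers tested were higher and in RV PAB-F 5 of 7, with summed levels of 244 to 1690 CPM in RV PAB-F against 151 to 478 CPM in RV Sham-F. In LV AOB-F 1 of 7 fibroblast, 3 of 8 macrophage and 2 of 7 endothelial markers were higher, with 39.8 to 214 CPM of macrophage markers against 33.6 to 133 CPM in LV Sham-F. Ventricular cardiomyocyte markers summed to 53800 to 107000 CPM in LV AOB-F and 84900 to 115000 CPM in LV Sham-F, with 1 of 9 called lower, and to 78400 to 132000 CPM in RV PAB-F and 103000 to 134000 CPM in RV Sham-F, with 1 of 9 called higher. Of the atrial cardiomyocyte markers Myl4, Myl7, Sln and Nppa, 2 of 4 were higher in RV PAB-H, 2 of 4 in RV PAB-F and 1 of 4 in LV AOB-F. Nppa is also known to rise in loaded ventricles, and the study lists Myl4 among its PAB-regulated genes of RV cardiomyocytes. The 4 atrial markers summed to 73.3 to 7600 CPM in RV PAB-F, with the highest sum in replicate 1, against 22.5 to 69.1 CPM in RV Sham-F, with no overlap. In LV AOB-F they summed to 389 to 2450 CPM against 149 to 952 CPM in LV Sham-F. The part of these cells in the results for the receptor, cyclase and kinase genes was not tested.

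The sequences before the starts of the genes that moved in LV AOB-F are shown because Adra1b and Adcy5 were lower together and Grk5 was higher. RefSeq promoter windows of rat build GRCr8 covered 5 of the 8 genes (Adrb1, Adra1b, Adcy5, Grk5 and Gnas, which has 3 starts), and the 250 bases before the start are used here. Capitals mark a GC box (GGGCGG on either strand, overlapping matches counted), bound by Sp1-type factors, or the core of a cAMP response element (TGACG on either strand). GC boxes were present in 30.5% and the cAMP response element core in 18.2% of 33469 windows of this length. The Adra1b window is chr10:28814348-28814597 on the minus strand, the Adcy5 window is chr11:79123344-79123593 on the minus strand and the Grk5 window is chr1:270014086-270014335 on the plus strand.
Adra1b: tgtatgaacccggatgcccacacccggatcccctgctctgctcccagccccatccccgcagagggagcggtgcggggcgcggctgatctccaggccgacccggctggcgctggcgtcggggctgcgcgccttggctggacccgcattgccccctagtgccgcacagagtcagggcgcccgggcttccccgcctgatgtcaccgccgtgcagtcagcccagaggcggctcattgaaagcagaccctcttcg
Adcy5: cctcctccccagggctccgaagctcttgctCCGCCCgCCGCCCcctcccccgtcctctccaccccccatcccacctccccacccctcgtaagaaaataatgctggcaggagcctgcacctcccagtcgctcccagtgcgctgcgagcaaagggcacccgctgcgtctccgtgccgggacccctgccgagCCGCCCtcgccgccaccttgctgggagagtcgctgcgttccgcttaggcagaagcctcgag
Grk5: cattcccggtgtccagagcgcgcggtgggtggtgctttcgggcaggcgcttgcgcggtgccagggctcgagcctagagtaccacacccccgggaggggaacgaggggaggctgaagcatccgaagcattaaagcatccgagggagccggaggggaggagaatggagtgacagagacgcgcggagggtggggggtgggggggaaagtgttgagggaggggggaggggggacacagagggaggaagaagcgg
The Adcy5 window held 3 GC boxes, and neither element was in the Adra1b or the Grk5 window. Bases G and C made up 70.8%, 70% and 67.2% of the windows of Adra1b, Adcy5 and Grk5, against a median of 51.2% over the 33469 windows. The core of a cAMP response element was found before Adrb1, where it begins 88 bases before the start, and before none of the other 4 genes with a window. The full element TGACGTCA, present in 1.60% of the windows, was found before none of the 5. These matches describe letters and are not evidence of binding.

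The ventricle that was not loaded was examined in the same way. In RV AOB-H, RV AOB-F, LV PAB-H and LV PAB-F 0 of 7 genes were called, where 0%, 0.0669%, 0% and 0% of the genes tested were. By edgeR at an unadjusted p under 0.05 there were 0, 0, 0 and 1 of 7, where 171, 517, 305 and 454 of the 11954 genes tested passed. DESeq2 called 0 of 7 in each. The 1 gene was Adcy5 in LV PAB-F, with a log2 fold change of -0.23 ± 0.11 (adjusted p = 1). The largest difference was that of Grk5 in RV AOB-F, at 0.38 ± 0.21, where 22.5 to 57.9 CPM in the banded animals compared with 21.4 to 42.4 CPM in sham animals. The 95% intervals of the other 27 log2 fold changes lay between -0.56 and 0.56.

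Whether the loaded ventricle differed from the remote ventricle of the same model was tested as a difference of the responses. For the PAB response of the RV minus that of the LV 0 of 7 genes were called at H (0% of the genes tested) and at F (0.351%), and for the AOB response of the LV minus that of the RV 0 of 7 at H (0%) and at F (0%). The change of the response from H to F was called for 0 of 7 genes in the RV under PAB (0%) and in the LV under AOB (0%). At an unadjusted p under 0.05 edgeR gave 1 of 7 for the AOB response of LV minus RV at F and 1 of 7 for the change in the LV under AOB. There 1161 and 1148 of the 11954 genes tested passed. It gave 0 of 7 in the other 4, where 177 to 1538 genes passed. DESeq2 called 0 of 7 in each. The largest of these differences was that of Grk5 in the LV, whose AOB response at F exceeded that at H by 0.74 ± 0.32 on the log2 scale (unadjusted p = 0.0205, adjusted p = 0.39). For Adcy5 the AOB-F response of the LV, set against the RV response, differed by -0.31 ± 0.14 (unadjusted p = 0.0321, adjusted p = 0.483). For Adra1a the PAB-F response in the RV differed from that in the LV by -0.30 ± 0.18, with an interval from -0.66 to 0.07. With the animal as a block, none of the 7 genes was called in the comparisons of the loaded with the remote ventricle. There 0.0418% (PAB-H), 2.92% (PAB-F), 0% (AOB-H) and 0.00837% (AOB-F) of the genes tested were called. A loss of Adra1a that is particular to the RV is therefore not shown.

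The RV and LV of the same animals were then compared within each condition. The α1A receptor gene Adra1a had a higher level in the RV than in the LV of 41 of 41 animals. In the 8 called results of 42 (7 genes in 6 conditions), Adra1a was higher in the RV in Sham-H and in Sham-F, AOB-F and PAB-F, Adra1b lower in Sham-F and PAB-F, Gnas lower in PAB-F and Grk5 lower in AOB-F. These are 1 of 7 genes in Sham-H, where 21% of the genes tested were called, 2 of 7 in Sham-F (74.3%), 3 of 7 in PAB-F (61.1%), 2 of 7 in AOB-F (67.1%) and 0 of 7 in PAB-H (0.125%) and AOB-H (7.98%). With the animal as a block, which the labels allow since both ventricles carry the animal's number, 16 of 42 were called, 1 in Sham-H (32.5% of the genes tested), 0 in PAB-H (1.51%), 4 in AOB-H (13.7%), 2 in Sham-F (77.2%), 5 in PAB-F (66.3%) and 4 in AOB-F (70.6%).

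Markers of other cells also differed between the ventricles. In Sham-F 5 of 7 endothelial, 5 of 7 mural, 4 of 7 fibroblast and 4 of 8 macrophage markers tested were lower in the RV, and 1 endothelial marker was higher. Endothelial markers summed to 641 to 1020 CPM in the RV and 1600 to 3150 CPM in the LV, mural markers to 327 to 515 and 686 to 1560 CPM, and the 5 adipocyte markers to 21.2 to 62.5 and 113 to 265 CPM, each with no overlap. Ventricular cardiomyocyte markers summed to 103000 to 134000 CPM in the RV and 84900 to 115000 CPM in the LV, and of these 9 genes 3 were called higher and 3 lower in the RV. At the H stage, among sham animals, 4 of 7 endothelial and 3 of 7 mural markers were lower in the RV. Their part in the differences between RV and LV was not tested.

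In the sham animals at F, Adra1a measured 104 to 135 CPM in the RV (median 126) and 47.8 to 94.0 CPM in the LV (median 69.2). The ventricles did not overlap. The RV exceeded the LV 1.76-fold, with a log2 fold change of 0.82 ± 0.12 (adjusted p = 2.85e-09). In Sham-H the values were 120 to 133 CPM in the RV and 68.7 to 112 CPM in the LV, again without overlap, and the log2 fold change was 0.42 ± 0.13 (adjusted p = 0.0181), which was no longer called without LV Sham-H replicate 4 (0.0759) or 5 (0.0579). The difference was 0.86 ± 0.13 in AOB-F (adjusted p = 4.81e-08) and 0.52 ± 0.14 in PAB-F (adjusted p = 0.00113). It was 0.40 ± 0.14 in AOB-H (adjusted p = 0.0694, and 0.00639 with the animal as a block) and 0.16 ± 0.14 in PAB-H (adjusted p = 0.644).

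Adra1b did not follow Adra1a. In Sham-H the ventricles overlapped, with a log2 fold change of 0.01 ± 0.15. In Sham-F the RV held 105 to 155 CPM and the LV 136 to 252 CPM, and Adra1b was lower in the RV, with a log2 fold change of -0.40 ± 0.13 (adjusted p = 0.00459). In PAB-F it was lower in the RV in 6 of 6 animals, at -0.59 ± 0.16 (adjusted p = 0.00113). In AOB-H its RV level was above the LV level in 6 of 6 animals, at 0.40 ± 0.16 (adjusted p = 0.123, and 0.015 with the animal as a block). Gnas was lower in the RV in 6 of 6 PAB-F animals, at -0.41 ± 0.13 (adjusted p = 0.00405), and Grk5 was lower in the RV in 7 of 7 AOB-F animals, at -0.61 ± 0.22 (adjusted p = 0.0142). Gnas in Sham-F, at -0.21 ± 0.10 (adjusted p = 0.0565), was called without LV Sham-F replicate 7 (0.0419) or 9 (0.0405). The Grk5 call was lost without RV AOB-F replicate 4 (0.0543) or LV AOB-F replicate 6 (0.0996) or 7 (0.146).

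**Figure D3:**
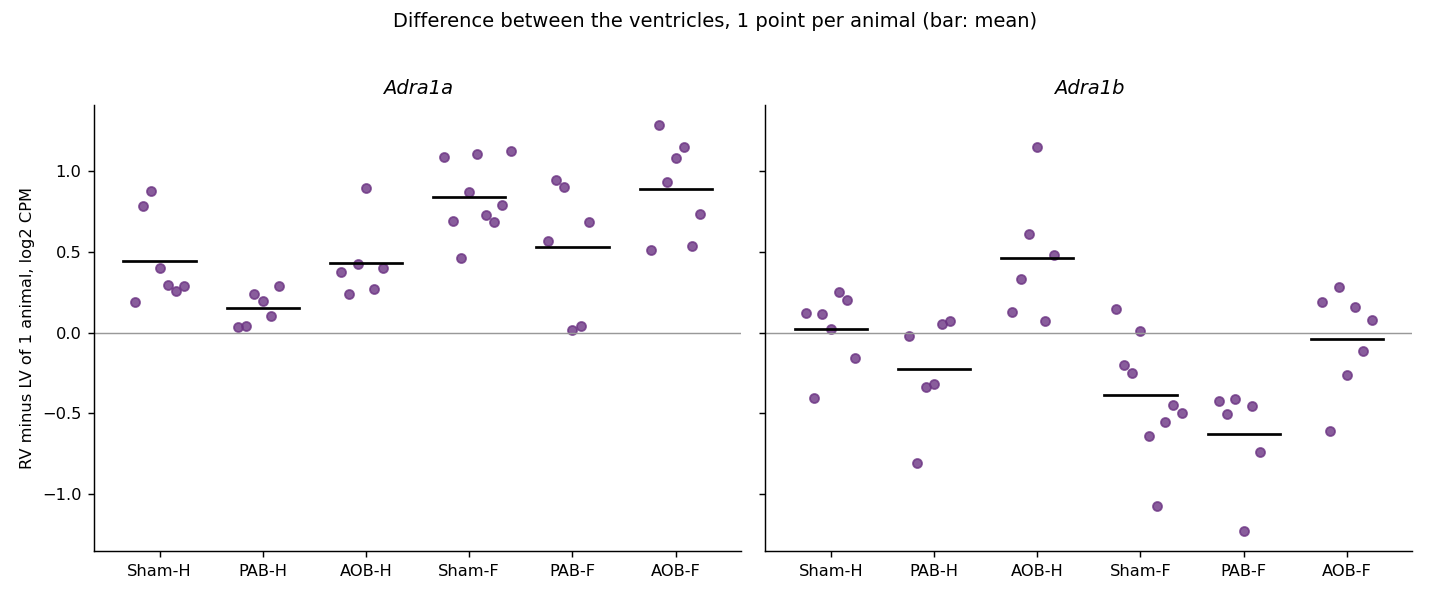
Difference between the RV and the LV of the same animal in log2 CPM (y axis) for Adra1a and Adra1b in the 6 conditions (x axis), with 1 point per animal and the mean as a bar. The 41 points of Adra1a lie above 0, with means from 0.15 in PAB-H to 0.89 in AOB-F, while the points of Adra1b lie on both sides of 0.

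With the animal as a block, 8 further results were called. Adrb1 was higher in the RV in AOB-H, by 0.54 on the log2 scale (adjusted p = 0.00376, and 0.0772 without the block) and lower in the RV in PAB-F at -0.40 (0.00831, and 0.0789 without). Adcy5 was higher in the RV in AOB-H by 0.32 (0.0187) and in AOB-F by 0.20 (0.0473). Adcy6 was lower in the RV in PAB-F at -0.31 (0.00809) and higher in the RV in AOB-F by 0.22 (0.041). The AOB-H results of Adra1a and Adra1b are given above. Without the block, some of these results were called when 1 library was left out. In AOB-H these were Adra1a and Adrb1 without LV AOB-H replicate 4 (0.0318 and 0.042), and Adra1a, Adra1b and Adrb1 without RV AOB-H replicate 6 (0.0242, 0.0455 and 0.0498). Without both libraries of the AOB-H animal of replicate 6, and without the block, 0 of 7 were called, with adjusted p of 0.198 for Adra1a, 0.3 for Adra1b and 0.272 for Adrb1, where 4.67% of the genes tested were called. In PAB-F they were Adcy6 without RV PAB-F replicate 3 (0.0413) and Adrb1 without LV PAB-F replicate 3 (0.0413) or RV PAB-F replicate 4 (0.0322) or 6 (0.0275), and in AOB-F Adcy5 without LV AOB-F replicate 4 (0.0447) or 5 (0.0478).

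The balance between the Adra1a and Adra1b transcripts was read from their ratio, which was not tested. Within a library, the ratio of Adra1a to Adra1b in FPKM averaged 1.49 to 1.72 in the 6 RV groups. In the LV it averaged 1.2 ± 0.322 in Sham-H, 1.32 ± 0.267 in PAB-H and 1.53 ± 0.208 in AOB-H, and 0.718 ± 0.173 in Sham-F, 0.798 ± 0.269 in PAB-F and 0.897 ± 0.295 in AOB-F. Adra1a exceeded Adra1b per length in each of the 41 RV libraries. In CPM, which is not scaled to length, its group mean lay below that of Adra1b in the 6 RV groups (123 against 131 CPM in RV Sham-F). Which gene is higher in the RV thus depends on the gene lengths used. In Sham-F the RV ratios of 1.45 to 2.09 did not overlap with the LV ratios of 0.477 to 0.887. The RV ratio was the higher one in each animal of 5 conditions and in 2 of 6 animals of AOB-H. The ratio of Adcy5 to Adcy6 showed no such order, with group means of 2.58 to 2.90 in the RV and 2.45 to 2.98 in the LV.

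**Figure D4:**
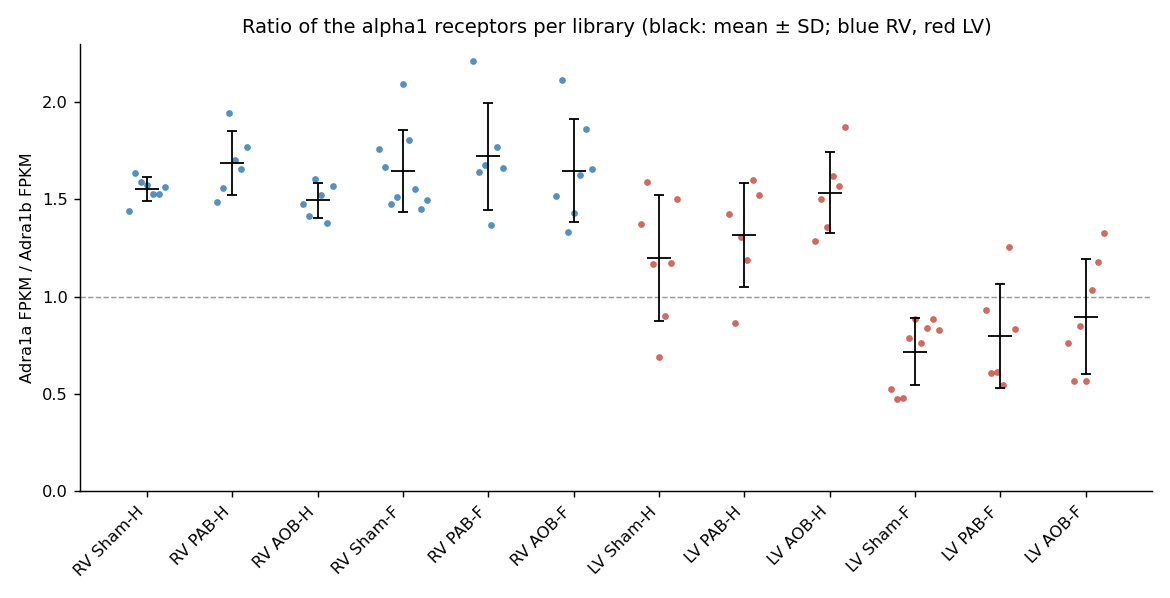
Ratio of Adra1a to Adra1b in the authors' FPKM (y axis, linear and starting at 0, with a dashed line at 1) in each library by group (x axis); blue points are RV libraries, red points LV libraries, and the black bars give the mean ± SD. The RV libraries lie above 1, and the LV groups of the F stage have means below 1. The position relative to 1 depends on the gene lengths used for FPKM.

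The sham groups, which differ in age and in time after surgery, were compared within each ventricle. In the RV 0 of 7 genes were called (0.0502% of the genes tested). At an unadjusted p under 0.05 edgeR gave 0 of 7, where 601 of the 11954 genes tested passed, and DESeq2 also called 0. In the LV 1 of 7 was called, against 57.4% of the genes tested. This was Adra1a, which fell from 68.7 to 112 CPM in LV Sham-H to 47.8 to 94.0 CPM in LV Sham-F. The groups overlapped, with 4 of 9 older libraries below the younger ones, and the fall was 0.44 ± 0.12 on the log2 scale (adjusted p = 0.00159). Adra1b, at 136 to 252 CPM in LV Sham-F and 117 to 175 CPM in LV Sham-H, gave a log2 fold change of 0.30 ± 0.14 (adjusted p = 0.0612, and 0.0334, 0.0491 and 0.0383 without LV Sham-H replicate 4 and LV Sham-F replicates 4 and 9). The difference between the ventricles was tested for a change from Sham-H to Sham-F, and 0 of 7 genes were called where 41.6% of the genes tested were. It grew by 0.40 ± 0.17 for Adra1a (adjusted p = 0.0567) and was -0.41 ± 0.20 for Adra1b (adjusted p = 0.0838). The Adra1a value was called, at adjusted p from 0.0147 to 0.0489, without any 1 of RV Sham-H replicates 1 and 7, LV Sham-H replicates 4, 5 and 6, RV Sham-F replicates 1, 2, 3, 5 and 9 and LV Sham-F replicates 5, 6, 7 and 8. With the animal as a block both were called, at adjusted p of 0.0167 and 0.0347, where 49.8% of the genes tested were. The animals were of 2 age groups sampled at different times, and age, time after surgery and any difference in handling cannot be told apart.

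Males and females were present in each group, and sex was tested as a term beside the 12 group means. Adcy6, Grk5 and Adrb1 were lower in males, 3 of 7 genes against 17.2% of the genes tested. Adcy6 measured 217 to 446 CPM in the RV of 21 males (median 377) and 313 to 562 CPM in the RV of 20 females (median 430), and 262 to 527 CPM (median 332) against 337 to 660 CPM (median 414) in the LV. The sexes overlapped over the groups, but within 6 of the 12 groups no male library reached the female ones. The RV and LV groups of a condition hold the same animals, and both groups of AOB-H and both of AOB-F are among these 6. The share of the genes tested with such a gap was not computed. The difference was -0.32 ± 0.05 on the log2 scale (adjusted p = 1.16e-05), and the male mean was the lower one in 10 of 12 groups. Grk5 measured 19.6 to 62.9 CPM (median 30.4) in the RV of males and 21.4 to 63.8 CPM (median 36.3) in that of females, with a difference of -0.45 ± 0.08 (adjusted p = 5.15e-05), the male mean being lower in 11 of 12 groups. For Adrb1 the difference was -0.20 ± 0.07 (adjusted p = 0.0289), with the male mean lower in 11 of 12 groups.

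Both ventricles of an animal enter that fit, so its p-values are too small. With 1 library per animal, the log2 difference of males from females was -0.25 for Adcy6 in the RV (adjusted p = 0.0196) and -0.39 in the LV (0.00293), and -0.39 for Grk5 in the RV (0.0284) and -0.50 in the LV (0.00326), with 8.38% and 9.9% of the genes tested called. Adrb1 was not called in either, at -0.16 in the RV (0.258) and -0.25 in the LV (0.119). Adra1a, Adra1b, Adcy5 and Gnas were not called in the joint fit, with log2 differences of -0.13, 0.10, -0.01 and 0.06. Adra1a was called without LV Sham-H replicate 4 (0.0461) or LV AOB-H replicate 6 (0.031). The banding response of males minus that of females was farthest from 0 for Grk5 in LV AOB-F, at -0.83 ± 0.34 (unadjusted p = 0.0163, adjusted p = 0.151). LV AOB-F held 4 males at 32.1 to 45.6 CPM of Grk5 and 3 females at 42.5 to 107 CPM.

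The rest of the pathway was read from 12 lists of 110 genes, of which 107 were in the table and 101 tested. In RV PAB-F 8 of 101 were higher and 7 lower, and in LV AOB-F 8 were higher and 6 lower, or 7.92% and 6.93% in RV PAB-F (7.66% and 3.42% of the genes tested) and 7.92% and 5.94% in LV AOB-F (8.54% and 4.35%). In RV PAB-H 3 were higher and 2 lower, and in the other 5 comparisons none was called. Without RV PAB-F replicate 1 the count in RV PAB-F was 3 higher (Adcy7, Maoa and Prkcd) and 3 lower (Rgs6, Ppp1r1a and Prkd1). Without LV AOB-F replicates 6 and 7 that in LV AOB-F was 2 higher (Akap12 and Gnb1) and 1 lower (Kcnq1). All other RV PAB-F and LV AOB-F calls of pathway genes, given below, were lost in these fits. In RV PAB-H, 3.91% of the genes tested were higher and 0.594% lower.

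Among other adrenergic receptors 1 of 5 was called. Adra1d, the α1D receptor, fell in RV PAB-F from 25.6 ± 6.29 CPM (SD, n = 9) to 15.3 ± 6.10 CPM (n = 6), by 0.74 ± 0.22 on the log2 scale (adjusted p = 0.0188), a call that was lost without RV PAB-F replicate 1. Among other adenylyl cyclases (6 tested) 2 were higher in RV PAB-F and 1 lower in LV AOB-F. Adcy7, a calcium-insensitive cyclase abundant in blood cells, rose from 3.71 ± 1.31 to 13.9 ± 14.1 CPM in RV PAB-F (log2 fold change 1.88 ± 0.35, adjusted p = 0.000131), with a range of 3.57 to 42 CPM and a log2 fold change of 1.14 (adjusted p = 0.0431) without RV PAB-F replicate 1, and was also higher in RV PAB-H (1.52 ± 0.37, adjusted p = 0.0141). Adcy2 rose at a low level, from 0.748 to 1.81 CPM in the mean. Adcy1, a calmodulin-stimulated cyclase, fell in LV AOB-F from 147 ± 27.1 to 90.9 ± 37.9 CPM (-0.69 ± 0.19, adjusted p = 0.00944).

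Of 16 G protein genes tested, 1 was higher in RV PAB-F and 2 were higher and 2 lower in LV AOB-F. Gnao1, an inhibitory-type α subunit, rose by 0.50 ± 0.13 in RV PAB-F (adjusted p = 0.00876). In LV AOB-F the βγ subunit genes Gnb1 and Gng12 rose by 0.43 ± 0.10 and 0.37 ± 0.12 on the log2 scale, and Gnb5 and Gng7 fell by 0.33 ± 0.09 and 0.92 ± 0.32 (adjusted p from 0.00298 to 0.0434 for the 4). Gng7, with 1.73 CPM in the mean of LV AOB-F, lay outside the rule for named genes and is given to complete the count. Of 6 other receptor kinases and arrestins, Arrb1, the β-arrestin 1 gene, rose in RV PAB-F from 21.6 ± 2.87 to 30.5 ± 3.42 CPM (0.50 ± 0.14, adjusted p = 0.0149), and 0 of 6 were called in LV AOB-F.

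RGS proteins end G protein signals by speeding the hydrolysis of GTP. Rgs6, which acts on inhibitory G proteins in myocytes, was lower in 3 of the 4 loaded groups. It fell in RV PAB-F from 91.7 to 122 CPM in 9 sham libraries to 29.7 to 79.2 CPM in 6 banded libraries, without overlap (-0.87 ± 0.14, adjusted p = 6.7e-06), in RV PAB-H by 0.68 ± 0.14 (adjusted p = 0.00534) and in LV AOB-F by 0.53 ± 0.13 (adjusted p = 0.00538). Rgs3 rose in RV PAB-F (0.66 ± 0.21), Rgs4 in RV PAB-H (0.92 ± 0.27) and Rgs2 in LV AOB-F (0.95 ± 0.25). The LV AOB-F calls of Rgs6 and Rgs2 were lost without LV AOB-F replicates 6 and 7. The RV PAB-F call of Rgs3 was lost without RV PAB-F replicate 1. Rgs2 had a log2 fold change of -0.71 ± 0.26 in RV PAB-F (adjusted p = 0.0566).

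Downstream of cAMP, 0 of 8 protein kinase A genes tested were called in either failing loaded ventricle. Of 10 A-kinase anchors, Akap12 and Akap13 rose in LV AOB-F, by 0.89 ± 0.28 and 0.60 ± 0.13 on the log2 scale, Akap13 from 289 ± 50.5 to 439 ± 151 CPM (adjusted p = 0.00111). Rapgef3, which encodes the cAMP-activated exchange factor Epac1, rose in RV PAB-H (0.93 ± 0.25) and RV PAB-F (0.69 ± 0.24), and Atf1, a CREB family factor, rose in LV AOB-F (0.31 ± 0.10). Of 13 protein kinase A substrates and phosphatases, Ppp1r1a, an inhibitor of protein phosphatase 1 that protein kinase A switches on, fell in RV PAB-F from 6.69 ± 1.69 to 3.04 ± 1.04 CPM (-1.13 ± 0.20, adjusted p = 3.24e-05) and in RV PAB-H by 0.91 ± 0.20. Rrad, a small G protein that restrains calcium channels until protein kinase A acts on it, fell in RV PAB-F by 0.62 ± 0.16. In LV AOB-F the potassium channel gene Kcnq1 fell by 0.56 ± 0.12 and the phosphatase gene Ppp2ca rose by 0.75 ± 0.17.

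On the α1 side, 1 of 9 genes was higher and 1 lower in each failing loaded ventricle. In RV PAB-F the protein kinase C gene Prkcd rose by 0.81 ± 0.16 (adjusted p = 0.000194) and the protein kinase D gene Prkd1 fell by 0.62 ± 0.14 (adjusted p = 0.00107). In LV AOB-F Prkce fell by 0.43 ± 0.10 (adjusted p = 0.00256) and Rhoa rose by 0.34 ± 0.07 (adjusted p = 0.000926). Of 6 genes of catecholamine handling, Maoa, the monoamine oxidase that degrades noradrenaline, rose in RV PAB-F from 292 ± 117 to 973 ± 571 CPM (1.74 ± 0.37, adjusted p = 0.000981), and Slc22a3, an organic cation carrier, fell by 0.70 ± 0.18 (adjusted p = 0.00771). In LV AOB-F Maoa ran from 151 to 560 CPM against 64.4 to 368 CPM in sham (0.74 ± 0.36, adjusted p = 0.159). Of 8 other Gs or Gi coupled receptors, the adenosine A1 receptor gene Adora1 fell in RV PAB-F (-0.80 ± 0.21, adjusted p = 0.00773). The pathway differences between RV PAB-F and LV AOB-F were not tested against each other.

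**Figure D5:**
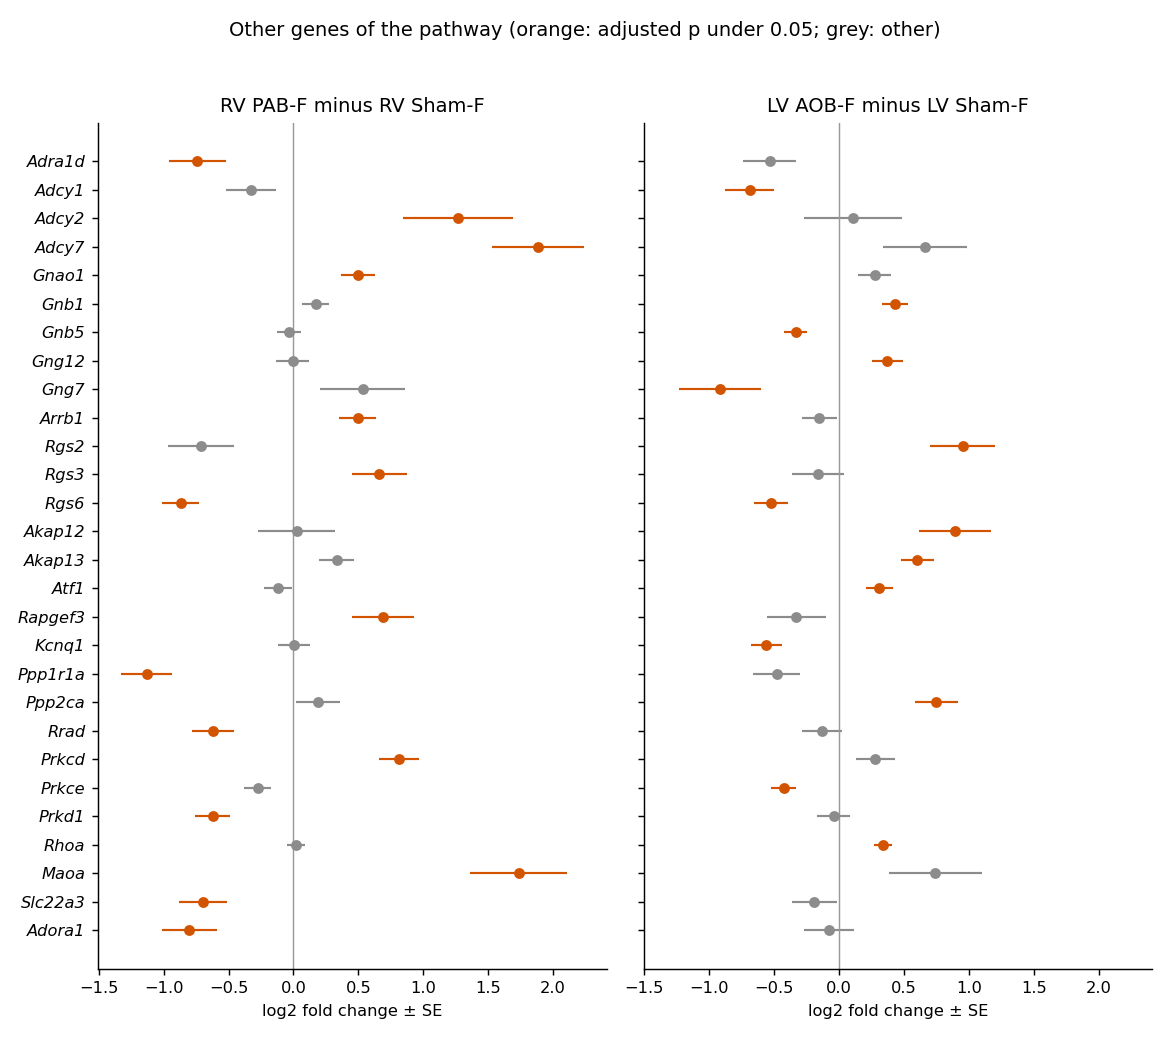
Log2 fold change ± SE (x axis) of the 28 pathway genes called in RV PAB-F or LV AOB-F, each shown in both comparisons; orange points have an adjusted p under 0.05. Adcy7 (1.88) and Maoa (1.74) lie farthest to the right in RV PAB-F, and Rgs6 is the gene that is orange in both panels. Without LV AOB-F replicates 6 and 7, only Akap12, Gnb1 and Kcnq1 stayed called in LV AOB-F. Without RV PAB-F replicate 1, only Adcy7, Maoa, Prkcd, Rgs6, Ppp1r1a and Prkd1 stayed called in RV PAB-F.

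The 7 genes did not vary as a unit. After the group means were subtracted, Pearson's r of log2 CPM over the 82 libraries was 0.79 between Adra1b and Adcy5 and 0.78 between Adra1b and Gnas, 0.65 between Adrb1 and Adra1a, and 0.02 between Adra1b and Adcy6. Grk5 had an r of -0.63 with Adra1b, -0.53 with Gnas and 0.32 with Adcy6. These values are descriptions, since pairs of libraries share an animal and genes of a library share its depth and cell composition. Over the 12 group means, the genes whose pattern was most like that of Adra1a were Pygb, Ppp1r14c and Isoc1 (r of 0.993, 0.991 and 0.988). For Adra1b they were Gtpbp1, Mrpl4 and Prkaca, the catalytic subunit gene of protein kinase A (0.955, 0.951 and 0.948), and for Adrb1 Tgfbi, Spry2 and Fos (0.953, 0.950 and 0.946). Adcy5 was most like Kcnj12, Lrrc4b and Gys1 (0.974, 0.941 and 0.939), Adcy6 most like Ppp1r1b, Irx3 and Kcnh2 (0.960, 0.959 and 0.952), Grk5 most like Tmem2, Lcp1 and Rab31 (0.922, 0.922 and 0.916) and Gnas most like Rbpms2, Mrpl2 and Bcor (0.948, 0.945 and 0.937). These partners were picked as the highest of the genes tested, so a high r over 12 means follows from the choice. With the group means subtracted, their r ran from -0.003 (Adcy6 with Irx3) to 0.92 (Adra1b with Prkaca).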

How the data were processed

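Cardiomyocyte RNA, depleted of ribosomal RNA, was sequenced from 82 libraries. Per the labels and the study's methods, the authors trimmed reads with Trim Galore, aligned them with STAR to the Rnor6.0 rat genome with UCSC annotation, and counted them per gene with featureCounts without multi-overlap reads. The strand of the counting is not given in the sources used here. The deposited count table holds raw read counts, and the deposited FPKM table, made by the authors, was used for levels between genes. The authors' normalized signal table, from DESeq2 1.28.1, was not used for tests.

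Counts were tested with edgeR 4.0.16 in R 4.3.3 (TMM, filterByExpr, quasi-likelihood, 12 group means, 82 libraries), with Benjamini-Hochberg adjustment over 11954 genes, and a gene was called at an adjusted p under 0.05. The SE is the log2 fold change over the root of F, CPM uses TMM library sizes, and log2 CPM adds a prior count of 2. The depth of 6675287 to 19665439 counts and a biological coefficient of variation of 0.244 set the precision. DESeq2 1.42.0, size factors, no filter, a sex term, replicate blocks, fits to the 2 groups compared, the study's criteria and leaving out libraries were alternatives, and the test was checked on simulated counts. Animals are the replicates. Both ventricles of an animal carry its number, and their deviations from the group means correlated with a median r of 0.186 to 0.297 per condition (lowest pair -0.141), against -0.069 to -0.014 for other animals. The number of value columns without a sample was 0.

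Members and lists were chosen with earlier results of these data known. Pathway genes are named when called in any of the 8 banding comparisons, or, where more than 4 of a list qualify, the 4 with the smallest adjusted p.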

Additional observations from a re-analysis of the deposited data

Results flagged for a closer look

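Gaps within groups were examined in 84 sets of 7 genes and 12 groups, and 8 held a library separated from the rest by more than Dixon's 95% limit, where chance flags about 1 in 20 sets. The AOB-H animal of replicate 6 gave 6 of the 8. Its LV library was the lowest of 6 for Adra1a (46.83 CPM) and Adcy5 (430.6 CPM) and the highest for Grk5 (76.17 CPM), and its RV library was the lowest for Adra1a (87.28 CPM) and Adra1b (96.53 CPM) and the highest for Grk5 (63.8 CPM). The LV library had 6675287 counts, the lowest total of the 82, and 3850 CPM of endothelial markers, the highest sum. Without both libraries of this animal 0 of 7 genes were called in LV AOB-H and in RV AOB-H against sham, and 0 of 7 between RV and LV in AOB-H, where 4.67% of the 12016 genes tested were called. The other sets were Adra1b in LV Sham-F, where replicate 2 was the highest of 9 at 251.8 CPM, and Adcy6 in LV PAB-F, where replicate 5 was the highest of 6 at 550.1 CPM.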

How the results depend on the processing

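Of 56 banding results (7 genes, 8 comparisons) 6 were called, and 5 to 9 under the other settings. The exceptions were leaving out LV AOB-F replicates 6 and 7 together, which left 2, and the study's criteria, which left 0. Leaving out each library in turn gave 4 to 9. Like totals did not always hold the same results. Fits to the 2 groups compared called 4 of 7 in RV PAB-H, where the main fit called 0. They called 0 of 7 in LV AOB-F, where the main fit called 1 higher and 3 lower. Of 42 RV against LV results 8 were called, 16 with the animal as a block, 0 by the study's criteria, 7 to 10 otherwise and 7 to 11 without each library in turn. Of 14 results of Sham-F against Sham-H 1 was called, and 2 with DESeq2's size factors and with DESeq2, where Adra1b in the LV was added (1 to 2 without each library in turn). Of 49 differences of responses 0 were called, 1 with sex as a covariate and 2 with the animal as a block (0 to 1 without each library in turn). The sex effect was called for 3 of 7 genes, 2 in each ventricle alone and 3 to 4 without each library in turn. The settings with 6 and 7, or the AOB-H animal of replicate 6, left out, the sex fits of each ventricle and the sex-specific responses were chosen after seeing the data. With the replicate number as a block, 5 banding results were called. Replicate numbers do not pair animals across conditions (lowest correlation -0.446, medians -0.081 to 0.16). Under that block Adra1a in RV PAB-F (-0.38, adjusted p = 0.0569) and Adcy6 in LV AOB-F (-0.34, adjusted p = 0.0573) were no longer called and Grk5 in RV PAB-F was (0.69, adjusted p = 0.0182). The animal block changed no call other than those it added. In RV PAB-F, Gnas was called with DESeq2 (0.033), no filter (0.0453) and size factors (0.0457), and Adrb1 with DESeq2 (0.0449). Depth was not limiting for the 7 genes tested, each with at least 193 counts in a library, and was for Adrb3, with at most 5.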
